A study of Mus musculus with 27 samples.

Results

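Glycolysis and glucose uptake genes were followed as a group of 31 genes of the 35275 in the deposited tables, in CD8 T cells with less or more let-7 microRNA than normal. They were taken by a list of symbols and not by a cut on their values. The list was drawn up with earlier results of these data known. It held the glucose transporter genes Slc2a1 and Slc2a3, the enzymes of glycolysis from the hexokinases to pyruvate kinase, and the Pfkfb regulators. Lactate dehydrogenases Ldha and Ldhb and the lactate transporters Slc16a1 and Slc16a3 followed. So did Pdk1, Pdk3, Mpc1 and Mpc2 at the entry of pyruvate into mitochondria, and the hypoxia genes Hif1a, Bnip3 and Egln3. All 31 were found, each under 1 gene identifier. RNA was sequenced from P14 CD8 T cells, whose transgenic receptor recognizes a viral peptide, taken from lymph nodes (the protocol also names spleens). All mice were on a Rag2-/- background, which lacks other T cells and B cells but keeps NK, myeloid and erythroid cells. The 3 genotypes were WT P14, lin28Tg P14 (labelled Lin28bTg, with a Lin28b transgene) and let-7Tg P14 (with a doxycycline-inducible let-7g transgene in the Col1a1 locus), from female and male mice of 6 to 10 weeks. At each of 3 stages every genotype had 3 libraries, which the study calls biological replicates, 27 in all. Naive cells had no treatment in culture. Cells of the 12 h stage were stimulated with anti-CD3 at 2 and anti-CD28 at 5 μg/mL with doxycycline at 2 μg/mL in all genotypes. Day 5 cells, called CTLs, were stimulated with anti-CD3 and irradiated splenocytes, received IL-2 at 100 U/mL after 48 h, and also had doxycycline. The methods give doxycycline water to control mice as well, with an allowance for stated exceptions, and the genotypes differ in no treatment by the labels. Time and stimulus changed together between stages and cannot be told apart. The promoter of the lin28 transgene is not given in the sources used here, and by the study's account it is active already in the thymus. The levels of let-7 itself were not analysed here.

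Glycolysis splits glucose into pyruvate in the cytosol. Glucose enters through facilitative transporters and is trapped by hexokinase, phosphofructokinase is the main control point, and lactate dehydrogenase turns pyruvate into lactate, which leaves the cell with a proton through monocarboxylate transporters. Naive T cells burn little glucose, whereas activated CD8 T cells raise glucose uptake and aerobic glycolysis as they grow and become effectors. The let-7 microRNAs pair with messenger RNAs through their seed and lower their level or translation, and Lin28 proteins block let-7 maturation.

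The let-7 seed is shown because the let-7Tg transgene makes let-7g and Lin28b blocks the maturation of the let-7 family. In the RefSeq mature sequences below, bases 2 to 8, the seed, are in capitals, and let-7a, let-7g and miR-98 share it.
let-7g-5p: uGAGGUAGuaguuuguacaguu
let-7a-5p: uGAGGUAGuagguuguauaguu
miR-98-5p: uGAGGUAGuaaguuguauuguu
The complement of the seed, CTACCTC, was searched for in GENCODE M21 (build GRCm38). For each gene the 3′ UTR was that of the protein-coding transcript with the longest coding sequence, the longer transcript being taken in ties. It was present in 1648 of 20636 genes (7.99%) and in 2 of the 31 members (6.45%). The first was Slc2a3, at chr6:122728370-122728394 on the minus strand, and the second was Aldoc, at chr11:78326788-78326812 on the plus strand. Both sites are printed with the seed match in capitals.
Slc2a3: ggttggaaggctCTACCTCactaca
Aldoc: acataccaaagtCTACCTCcatgtg
The other 29 members hold no such match in that transcript, which says nothing of shorter matches or of other transcripts.

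Levels are FPKM, read counts divided by the gene's length and by the library's total, so that genes of different length can be set side by side. Sequencing depth was 13862706 to 23591069 counted reads per library, at which a gene of 2 kb with 10 reads has 0.212 to 0.361 FPKM. Lin28b stood at 56.4 to 67.9 FPKM in naive, 9.94 to 12.6 at 12 h and 14.0 to 22.4 on day 5 in lin28Tg, and at no more than 0.0590 FPKM in the other 18 libraries. Col1a1, the locus of the let-7 transgene, was at 9.06 to 62.8 FPKM in let-7Tg and at no more than 4.93 elsewhere. The 8 CD8 T cell markers summed to 1783 FPKM or more in every library. The naive lin28Tg libraries stood apart. The 9 myeloid markers summed to 205, 944 and 482 FPKM in their replicates 1, 2 and 3, against 39.6 to 63.7 in WT and 26.0 to 69.6 in let-7Tg. The 7 erythroid markers summed to 1046, 1994 and 494 FPKM there, 153 to 292 in WT and 2.34 to 39.0 in let-7Tg. Of the listed markers, 1 of the 9 myeloid and 2 of the 7 erythroid markers were under 0.5 FPKM in all 3 of these libraries. The 4 NK cell markers, which activated CD8 T cells can share, summed to 73.5 to 112 FPKM in naive lin28Tg, 25.7 to 51.8 in WT and 17.7 to 34.7 in let-7Tg, and on day 5 to 138 to 299.6, 67.3 to 94.0 and 18.1 to 47.0, and their part in the results was not tested. At 12 h the erythroid sum was still 83.3 to 693 in lin28Tg against 26.1 to 103 in WT and 0.896 to 4.39 in let-7Tg, while by day 5 both sums were under 12 FPKM in all genotypes. The 4 CD4 T cell markers also summed to more in these libraries, 24.1, 83.5 and 54.2 FPKM, against 12.9 to 23.7 in WT and 14.0 to 19.3 in let-7Tg. A naive fit without lin28Tg replicates 2 and 3 was therefore run too, and the calls it lost are named with the counts of members called. The lin28Tg replicate 1 kept there still had higher myeloid and erythroid sums than any naive WT or let-7Tg library. Its erythroid sum was also above that of replicate 3, so this fit is not free of such RNA. Xist, the RNA of the inactive X chromosome of females, was nearly absent in naive replicate 1 of WT and of let-7Tg. It was at 171 and 181 FPKM in naive WT replicates 2 and 3, and at 154 and 205 in those of let-7Tg. All naive lin28Tg libraries had less than these, 71.2, 115 and 68.2 FPKM, and the reason was not tested. A fit of the naive libraries with Xist RNA is thus not shown to be matched in sex. At 12 h Xist was present in lin28Tg replicate 3 alone (112 FPKM), and on day 5 in replicate 1 of each genotype. Sex was thus not balanced over genotypes in naive cells or at 12 h.

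**Figure D1:**
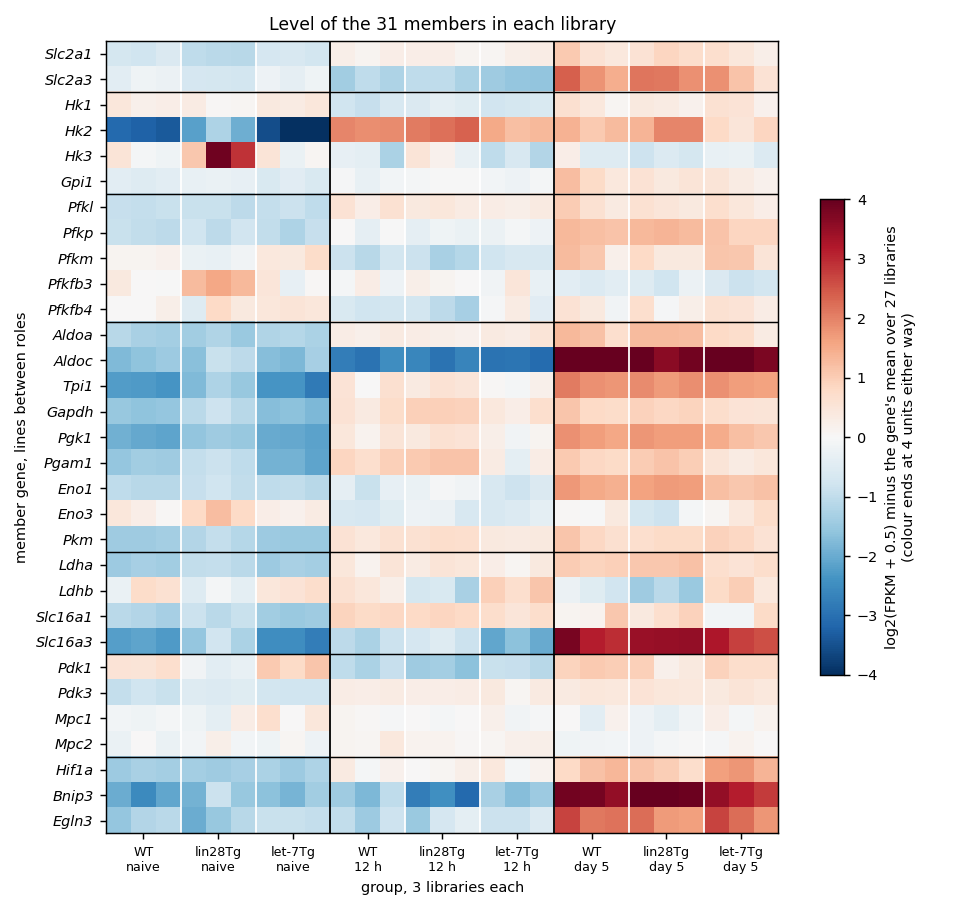
Level of the 31 members (rows, grouped by role) in each of 27 libraries (columns, 3 per group), as log2(FPKM + 0.5) minus the gene's own mean over all libraries, with red above and blue below it. Most enzymes of the pathway are blue in naive libraries and red on day 5, Hk2 is already red at 12 h, and Slc16a3, Bnip3, Egln3 and Aldoc turn red only on day 5.

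The largest differences among the 31 genes were between stages. From naive to 12 h, WT cells raised 19 members and lowered 7, with 34.8% of all genes tested called higher and 36.2% lower. In lin28Tg cells 19 members rose and 9 fell, beside 34.3% and 39.3% of all genes, and in let-7Tg cells 19 rose and 6 fell, beside 34.1% and 35.2%. From 12 h to day 5 19 members rose and 4 fell in WT (34.3% and 33% of all genes), 18 rose and 2 fell in lin28Tg (33.1% and 33.4%), and 17 rose and 3 fell in let-7Tg (34.3% and 32.7%). Between naive cells and day 5 CTLs of WT, 23 of 31 rose and 2 fell, when 32.9% of all genes rose and 32.6% fell. The median log2 difference of the members there was 2.27, and that of all genes was -0.01. In bulk RNA, fewer cells of a type and less RNA per cell cannot be told apart. The 31 genes together took 0.445% to 0.463% of the counted reads in naive WT, 1.11% to 1.38% at 12 h and 1.99% to 2.53% on day 5. In lin28Tg the share was 0.527% to 0.593% in naive cells and 1.39% to 1.47% at 12 h, above every WT library. In let-7Tg it was 0.440% to 0.452% and 1.05% to 1.24%, overlapping WT. On day 5 the share was 2.25% to 2.27% in lin28Tg, inside the WT range, and 1.69% to 1.99% in let-7Tg. All let-7Tg libraries were then below all WT libraries, the highest (1.990%) only just below the lowest of WT (1.994%). No test was run on these sums.

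Differences are given as fitted differences on the log2(FPKM + 0.5) scale from limma, and adjusted p-values are Benjamini-Hochberg values over all genes tested, with 0.05 as the threshold for a call. Hk2 rose early: in WT its level went from 2.46, 2.26 and 1.99 FPKM to 99.3, 93.2 and 95.4 at 12 h, a fitted log2 difference of 5.34 ± 0.22 (± SE throughout), and then fell by 0.79 on that scale. On the log2 scale the lower enzymes Tpi1, Gapdh, Pgk1, Pgam1 and Pkm also made most of their rise by 12 h. Their log2 differences were 2.91, 2.34, 2.62, 2.50 and 2.16. In FPKM Tpi1 and Pgk1 gained more after 12 h than before it. Late risers were Slc16a3, Bnip3, Egln3 and Aldoc, which gained 4.25, 5.03, 3.31 and 7.31 between 12 h and day 5 in WT. Bnip3 codes for a mitochondrial protein of mitophagy and Egln3 for a prolyl hydroxylase that marks hypoxia-inducible factor for decay. A dip followed by recovery was seen in Slc2a3, Hk1, Pfkm and Pdk1, which fell by 0.73, 0.88, 0.83 and 1.43 from naive to 12 h in WT and gained 2.99, 1.05, 1.65 and 1.93 by day 5. All of these differences passed the test. Mpc1, a subunit of the mitochondrial pyruvate carrier, stayed at 5.79 to 13.0 FPKM in all 27 libraries and was called in no comparison of stages.

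Promoter windows are shown for 4 members that rose early or late, because the motif ACGTG, the core of the element that hypoxia-inducible factor binds, is known from genes of glycolysis. The windows are the 250 bases before a RefSeq start (build GRCm38.p6), 5′ to 3′ on the gene's strand, with each ACGTG, or CACGT on the other strand, in capitals. Where both overlap they read CACGTG, the E-box core, which counts as a match on each strand.
Hk2, chr6:82774455-82774704, minus strand: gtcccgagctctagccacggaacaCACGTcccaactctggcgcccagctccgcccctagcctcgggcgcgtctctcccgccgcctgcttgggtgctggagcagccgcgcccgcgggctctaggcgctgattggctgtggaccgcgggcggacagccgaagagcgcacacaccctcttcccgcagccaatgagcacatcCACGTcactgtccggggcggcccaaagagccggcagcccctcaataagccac
Slc16a3, chr11:120948817-120949066, plus strand: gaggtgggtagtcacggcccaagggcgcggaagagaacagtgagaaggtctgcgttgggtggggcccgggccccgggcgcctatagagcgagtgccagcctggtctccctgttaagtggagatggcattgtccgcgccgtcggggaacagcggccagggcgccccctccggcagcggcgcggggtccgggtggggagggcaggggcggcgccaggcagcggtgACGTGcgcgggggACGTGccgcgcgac
Bnip3, chr7:138909507-138909756, minus strand: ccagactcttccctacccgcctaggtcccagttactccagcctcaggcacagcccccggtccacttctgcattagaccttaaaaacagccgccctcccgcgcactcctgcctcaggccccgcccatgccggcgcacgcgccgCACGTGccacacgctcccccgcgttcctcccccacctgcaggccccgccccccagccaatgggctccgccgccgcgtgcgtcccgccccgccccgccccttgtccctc
Ldha, chr7:46845554-46845803, plus strand: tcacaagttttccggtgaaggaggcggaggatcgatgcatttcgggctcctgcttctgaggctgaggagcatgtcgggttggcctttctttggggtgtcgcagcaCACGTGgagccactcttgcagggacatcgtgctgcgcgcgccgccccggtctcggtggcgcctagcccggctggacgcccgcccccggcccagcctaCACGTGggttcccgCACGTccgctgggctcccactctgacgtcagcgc
Of the 32851 windows in the table, 16.6% held at least 1 match and 6.81% at least 2. Of the 44 windows of 30 members (all but Slc2a3), 19 (43.2%) held at least 1 and 9 (20.5%) at least 2. Genes with several starts have several windows, so windows of a gene are not independent. The printed Ldha window held the most matches, 5, whereas the window at another Ldha start, chr7:46846832-46847081, held none. The window of Ldhb and those of Pdk1, Tpi1, Gapdh, Eno1 and Aldoc held none either. A match is a description of these letters, not a site in use.

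**Figure D2:**
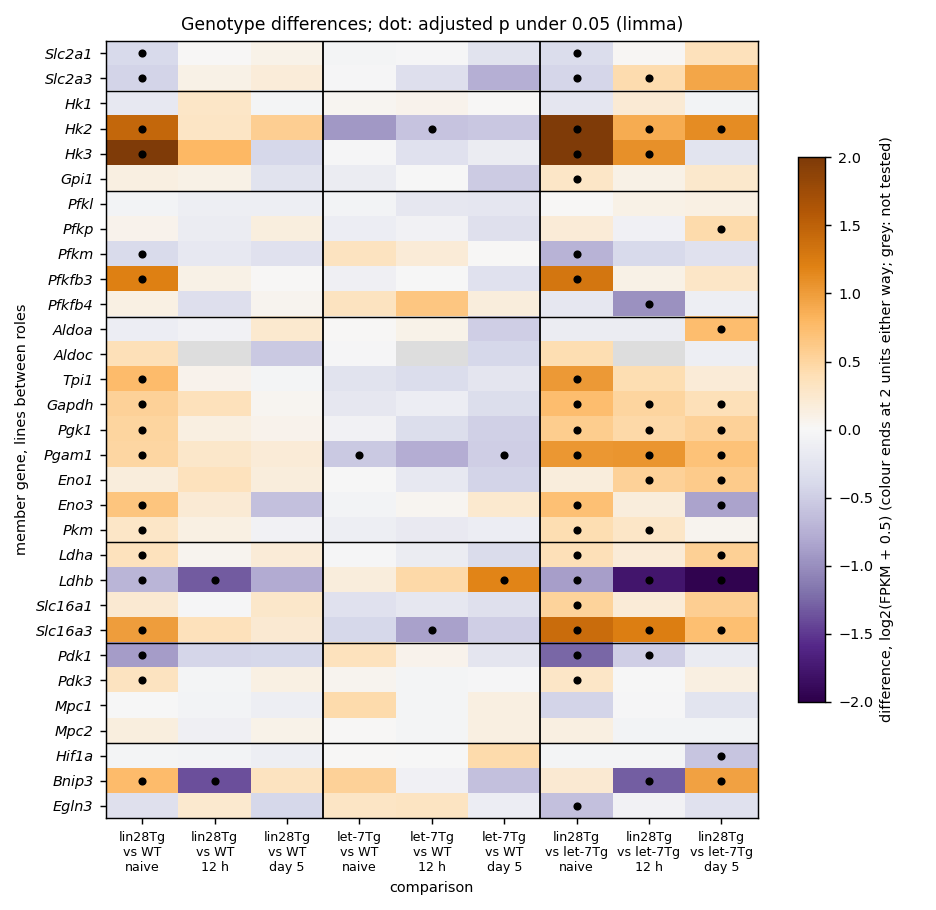
Fitted differences between genotypes for the 31 members (rows, grouped by role) in 9 comparisons (columns), on the log2(FPKM + 0.5) scale, orange for higher and purple for lower in the genotype named first. Black dots mark adjusted p under 0.05. Dots are dense in the naive lin28Tg columns, sparse in the let-7Tg columns, and Ldhb is purple in all 3 columns of lin28Tg against let-7Tg.

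By the study's account let-7 is deficient in lin28Tg and overexpressed in let-7Tg cells. The comparisons below give differences between genotypes, and whether let-7 itself brings them about was not tested. In naive cells 13 members were higher and 5 lower in lin28Tg than in WT, when 20.2% of all genes were called higher and 13.1% lower. With lin28Tg replicate 1 as the remaining lin28Tg library, which is then assumed to vary like the other groups, 4 members passed, Gapdh, Pgk1 and Pgam1 higher and Pdk1 lower, beside 4.54% and 2.13% of all genes. The other 14 calls were lost: Slc2a1, Slc2a3, Hk2, Hk3, Pfkm, Pfkfb3, Tpi1, Eno3, Pkm, Ldha, Ldhb, Slc16a3, Pdk3 and Bnip3. Only Pgam1 was called between naive let-7Tg and WT, lower, where 0.309% of all genes were higher and 0.625% lower. Naive lin28Tg against let-7Tg called 14 members higher and 6 lower (24.2% and 19.4% of all genes), or 11 and 4 without the same pair of libraries (11.2% and 7.29%), where Slc2a1, Slc2a3, Hk3, Gpi1, Ldhb and Pdk3 were lost and Pfkfb4 was gained. In the naive libraries with Xist RNA alone 16 members passed between lin28Tg and WT (17.4% of all genes higher, 10.6% lower). Between lin28Tg and let-7Tg 19 passed there (21.3% and 16.1%). The call of Pgam1 between let-7Tg and WT was lost (log2 difference -0.63 ± 0.10, adjusted p = 0.0920). Calls among all genes fell there too, to 0.0462% higher and 0.0462% lower. That fit left out replicate 1 of WT and of let-7Tg but no lin28Tg library. The libraries with the highest myeloid sums thus stayed in. At 12 h, 30 members could be tested, Aldoc being too low. Against WT, lin28Tg lowered Ldhb and Bnip3 and raised none (6.2% of all genes higher, 2.35% lower), and let-7Tg lowered Hk2 and Slc16a3 and raised none (1.5% and 1.92%). Same-numbered WT and let-7Tg libraries deviated together at 12 h, but so did some with different numbers, so pairing is not shown. A fit of these 6 libraries with the replicate block, added after seeing the data, called 6 members. All were lower in let-7Tg: Hk2, Slc16a3, Pfkl, Tpi1, Pgk1 and Pgam1 (5.34% of all genes higher, 6.79% lower). The 2 transgenic genotypes differed in 13 members at 12 h, 9 higher and 4 lower in lin28Tg (16.3% and 14.9% of all genes). Without lin28Tg 12 h replicate 2 that count was 7, and the share of all genes called in that fit is not given here. The median log2 difference of the members tested between lin28Tg and let-7Tg was 0.23 in naive cells, 0.11 at 12 h and 0.20 on day 5, and that of all genes -0.00, -0.02 and -0.01.

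On day 5 no member passed between lin28Tg and WT in limma, when 1.91% of all genes were higher and 2.35% lower. None passed with voom on the recovered reads either. In limma 5 of the 31 members had an unadjusted p under 0.05, as had 2570 of the 13030 genes tested. The smallest adjusted p of a member was 0.0565, for Ldhb. Against WT, let-7Tg CTLs had Ldhb higher and Pgam1 lower (0.614% and 0.376%). Between lin28Tg and let-7Tg CTLs 10 members were higher and 3 lower (10.5% and 11.3%), or 8 and 3 with no scaling between libraries. Same-numbered day 5 libraries of the 3 genotypes deviated together, and replicate 1 was the library with Xist RNA in each, so the numbers were taken as pairs. The labels do not state this pairing, and the calls with the replicate block on day 5 rest on it. With the replicate block, 4 members passed between lin28Tg and WT, all lower: Aldoc, Eno3, Ldhb and Egln3 (6.49% of all genes higher, 6.95% lower). Between let-7Tg and WT 7 passed with the replicate block, with Slc2a3, Pgk1, Eno1, Ldha and Bnip3 lower beside Pgam1, and Ldhb higher (2.12% and 1.83%). Slc2a3 and Slc16a1 joined the members higher in lin28Tg than in let-7Tg, for 12 higher and 3 lower (17.4% and 18.7%). The count for let-7Tg against WT on day 5 was 5 without WT replicate 3 and 0 without WT replicate 1, WT replicate 2, any lin28Tg replicate, let-7Tg replicate 1 or let-7Tg replicate 2. The count for lin28Tg against WT was 2 without lin28Tg replicate 1. Shares of all genes called in these fits without single libraries are not given here. Whether the members or all genes changed there is thus not shown.

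Glucose transporters came first in the order of the pathway. Slc2a1 codes for the widespread basal transporter and Slc2a3 for a transporter of higher affinity known from neurons and lymphocytes. Slc2a1 in naive cells was at 42.6, 39.7 and 46.8 FPKM in WT, 34.2, 32.7 and 32.2 FPKM in lin28Tg and 43.3, 44.1 and 41.7 FPKM in let-7Tg. All lin28Tg libraries were below all others, and lin28Tg was lower than WT (log2 difference -0.40 ± 0.07, adjusted p = 0.00390) and than let-7Tg (log2 difference -0.36 ± 0.07, adjusted p = 0.00429). Slc2a3 in the same libraries was at 38.2, 46.1 and 43.7 FPKM in WT, 32.0, 31.4 and 31.1 FPKM in lin28Tg and 44.6, 39.9 and 45.9 FPKM in let-7Tg, again with lin28Tg lowest (log2 difference -0.45 ± 0.08, adjusted p = 0.00343 against WT). Without lin28Tg replicates 2 and 3 the comparison with WT gave a log2 difference of -0.32 ± 0.11 (adjusted p = 0.122) for Slc2a1 and a log2 difference of -0.40 ± 0.12 (adjusted p = 0.0945) for Slc2a3. At 12 h Slc2a1 stood at 73.3 to 85.6 FPKM over the 9 libraries with the genotypes overlapping, and lin28Tg differed from let-7Tg by 0.02 ± 0.08 log2 units, which was not called. Slc2a3 at that stage was at 19.5, 25.2 and 21.5 FPKM in WT, 25.1, 25.3 and 21.3 FPKM in lin28Tg and 18.8, 17.4 and 16.9 FPKM in let-7Tg. Every lin28Tg library was now above every let-7Tg library (log2 difference 0.43 ± 0.11, adjusted p = 0.0146). The change of that difference from naive cells to 12 h did not pass (log2 change 0.87 ± 0.30, adjusted p = 0.0543), and the naive difference from let-7Tg gave adjusted p = 0.0703 in limma without lin28Tg replicates 2 and 3. By day 5 Slc2a3, which carries the let-7 seed match printed above, reached 276, 182 and 143 FPKM in WT, 231, 224 and 185 FPKM in lin28Tg and 185, 115 and 77.0 FPKM in let-7Tg. WT overlapped with both transgenic genotypes, the lowest lin28Tg library was just above the highest let-7Tg library, and replicate 1 was the highest library of each genotype. Lin28Tg against let-7Tg gave a log2 difference of 0.94 ± 0.31 (adjusted p = 0.0579), and a log2 difference of 0.94 ± 0.16 (adjusted p = 0.00360) with the replicate block. Against WT, let-7Tg gave a log2 difference of -0.75 ± 0.31 (adjusted p = 0.344), or a log2 difference of -0.75 ± 0.16 (adjusted p = 0.0456) with the replicate block. Slc2a1 made up 75.0% to 80.7% of the summed FPKM of the pair at 12 h in WT and 34.3% to 39.5% on day 5.

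Hexokinases trap glucose in the cell, and Hk2, the inducible isozyme of activated T cells, kept 1 order of genotypes by group mean at all stages (gene at chr6:82725025-82774454, GRCm38). In naive cells Hk2 was at 2.46, 2.26 and 1.99 FPKM in WT, 5.25, 10.5 and 6.15 FPKM in lin28Tg and 1.70, 0.696 and 0.706 FPKM in let-7Tg. No genotype overlapped another. Lin28Tg exceeded WT (log2 difference 1.44 ± 0.29, adjusted p = 0.00535, or log2 difference 1.08 ± 0.34, adjusted p = 0.0965 without lin28Tg replicates 2 and 3) and let-7Tg (log2 difference 2.37 ± 0.29, adjusted p = 2.94e-04), a fitted 5.16-fold difference, while let-7Tg against WT gave a log2 difference of -0.93 ± 0.29 (adjusted p = 0.173). At 12 h the levels were 99.3, 93.2 and 95.4 FPKM in WT, 109, 118 and 132 FPKM in lin28Tg and 73.2, 58.7 and 62.3 FPKM in let-7Tg. The order held, with let-7Tg below WT (log2 difference -0.59 ± 0.11, adjusted p = 0.0275) and lin28Tg above let-7Tg (log2 difference 0.89 ± 0.11, adjusted p = 4.37e-04). In CTLs Hk2 was at 66.4, 52.7 and 61.5 FPKM in WT, 65.6, 98.8 and 98.2 FPKM in lin28Tg and 44.2, 35.3 and 46.7 FPKM in let-7Tg. Here lin28Tg replicate 1 lay inside the WT range, every let-7Tg library was below every other, and the call was between lin28Tg and let-7Tg (log2 difference 1.12 ± 0.19, adjusted p = 0.00350). As a share of the summed FPKM of Hk1, Hk2 and Hk3, Hk2 was 1.21% to 1.42% in naive WT, 2.99% to 5.99% in naive lin28Tg and 0.381% to 0.938% in naive let-7Tg. The share at 12 h was 52.7% to 56.6%, 53.1% to 57.9% and 41.2% to 48.3% in the same order.

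**Figure D3:**
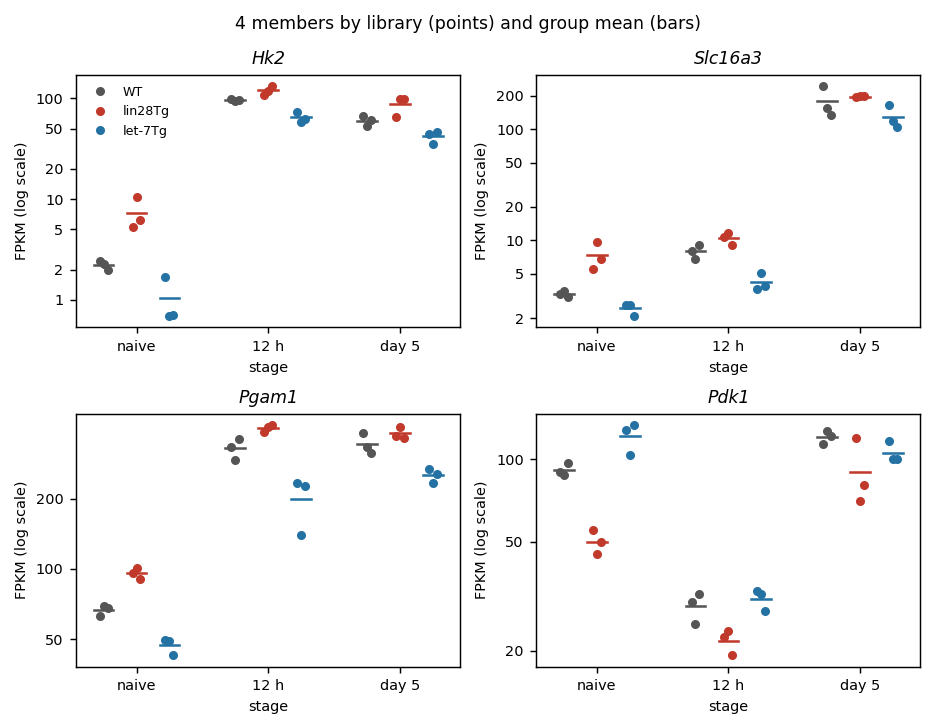
FPKM of Hk2, Slc16a3, Pgam1 and Pdk1 on a log scale in each library (points) with the group mean (bars), by stage and genotype. Hk2, Slc16a3 and Pgam1 have let-7Tg lowest at each stage by group mean, and in naive cells the 3 genotypes do not overlap; Pdk1 is lowest in lin28Tg.

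Hk1, the housekeeping isozyme, was at 138 to 184 FPKM in naive cells, 70.5 to 103 at 12 h and 143 to 210.1 on day 5, and was called between no genotypes. Hk3 is the isozyme known from myeloid cells. It was at 2.19, 1.29 and 1.16 FPKM in WT, 3.47, 27.2 and 13.5 FPKM in lin28Tg and 2.17, 1.06 and 1.49 FPKM in let-7Tg in naive cells. High values were in lin28Tg replicates 2 and 3, the libraries with the highest myeloid marker sums, and replicate 1, though above the 6 other libraries, was closer to them. The difference from WT was 2.51 ± 0.57 log2 units (adjusted p = 0.00941), and a log2 difference of 0.99 ± 0.35 (adjusted p = 0.129) without these libraries. The myeloid markers Lyz2 and Csf1r were at 96.2, 491 and 272 and 7.37, 59.8 and 29.8 FPKM in the naive lin28Tg replicates 1, 2 and 3, and the part of such RNA in the other naive differences was not tested. At 12 h Hk3 was at 0.276 to 2.16 FPKM and higher in lin28Tg than in let-7Tg (log2 difference 1.09 ± 0.28, adjusted p = 0.0176), with the myeloid sum at 7.98 to 18.1 and 5.53 to 10.5 FPKM. Glucose phosphate isomerase, Gpi1, was at 251, 234 and 249 FPKM in WT, 272, 281 and 267 FPKM in lin28Tg and 219.7, 244 and 221 FPKM in let-7Tg in naive cells, and lin28Tg differed from let-7Tg by a called 0.28 ± 0.07 log2 units (adjusted p = 0.00910), which was lost without lin28Tg replicates 2 and 3 (log2 difference 0.31 ± 0.10, adjusted p = 0.0728). It was called between genotypes at no later stage, and reached 377 to 789.5 FPKM on day 5.

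Phosphofructokinase carries out the committed step, and the bifunctional Pfkfb enzymes set the level of its activator. The muscle isozyme gene Pfkm was at 7.51, 7.56 and 7.90 FPKM in WT, 5.68, 5.58 and 6.24 FPKM in lin28Tg and 9.49, 9.30 and 11.9 FPKM in let-7Tg in naive cells. It ran from lin28Tg through WT to let-7Tg without overlap, lin28Tg being lower than WT (log2 difference -0.39 ± 0.11, adjusted p = 0.0218) and than let-7Tg (log2 difference -0.73 ± 0.11, adjusted p = 7.97e-04). Pfkfb3, the isoform that favours glycolysis, was at 65.9, 51.2 and 50.0 FPKM in WT, 121, 148 and 124 FPKM in lin28Tg and 71.5, 40.0 and 52.2 FPKM in let-7Tg in the same libraries. Each lin28Tg library was above the other 6 (log2 difference 1.20 ± 0.19, adjusted p = 0.00168 against WT). Lin28Tg replicate 1 alone gave a log2 difference of 1.12 ± 0.27 (adjusted p = 0.0503). Later levels were 41.2 to 70.4 FPKM at 12 h and 27.6 to 43.2 on day 5. The genotypes overlapped at 12 h, on day 5 the highest let-7Tg library (33.99 FPKM) lay just below the lowest WT library (34.3 FPKM), and lin28Tg minus let-7Tg, not called, was 0.11 ± 0.17 and 0.29 ± 0.15 log2 units. Pfkfb4 was low, at 1.61 to 8.80 FPKM over all libraries, and was called at 12 h, lower in lin28Tg than in let-7Tg (log2 difference -0.97 ± 0.20, adjusted p = 0.00667). Pfkl, the liver isozyme, was at 54.3 to 61.8 FPKM in naive cells, 130.4 to 171 at 12 h and 135 to 224 on day 5. It was not called between genotypes in the fits of all 3. The 12 h fit of WT and let-7Tg alone with the replicate block called it lower in let-7Tg (log2 difference -0.22 ± 0.06, adjusted p = 0.0464). Pfkp, the platelet isozyme and by FPKM the most abundant of the 3 on day 5, was then at 448, 419 and 403 FPKM in WT, 450.3, 471 and 438 FPKM in lin28Tg and 404, 334 and 331 FPKM in let-7Tg, higher in lin28Tg than in let-7Tg (log2 difference 0.44 ± 0.09, adjusted p = 0.00699).

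The later steps of the pathway make and use the triose phosphates and yield ATP and NADH. Pgam1, phosphoglycerate mutase (chr19:41911923-41918660), was called in 3 of the 6 comparisons with WT, as was Ldhb, and no other member in more than 2. In naive cells it was at 62.8, 69.7 and 68.3 FPKM in WT, 95.8, 101 and 90.7 FPKM in lin28Tg and 49.8, 49.1 and 42.8 FPKM in let-7Tg. The 3 genotypes did not overlap, with lin28Tg above WT (log2 difference 0.49 ± 0.08, adjusted p = 0.00264) and let-7Tg below WT (log2 difference -0.55 ± 0.08, adjusted p = 0.0266). At 12 h it was at 334, 294 and 362 FPKM in WT, 386, 408 and 412 FPKM in lin28Tg and 232, 140.1 and 227 FPKM in let-7Tg, and again no group overlapped another. Lin28Tg against let-7Tg gave a log2 difference of 1.05 ± 0.19 (adjusted p = 0.00375), and let-7Tg against WT gave a log2 difference of -0.77 ± 0.19 (adjusted p = 0.0574), or -0.78 ± 0.11 (adjusted p = 0.0137) in the fit of these 6 libraries with the replicate block. On day 5 the levels were 384, 332 and 313 FPKM in WT, 372, 407 and 365 FPKM in lin28Tg and 267, 234 and 254 FPKM in let-7Tg. All let-7Tg libraries were below all others (log2 difference -0.49 ± 0.09, adjusted p = 0.0493 against WT, and log2 difference 0.69 ± 0.09, adjusted p = 0.00129 for lin28Tg over let-7Tg). The naive call against WT was lost without WT replicate 2 or 3 and without let-7Tg replicate 1 or 3.

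Gapdh, which oxidizes the triose phosphate, was at 918, 863 and 911 FPKM in WT, 1259.8, 1494 and 1231 FPKM in lin28Tg and 805, 841 and 757 FPKM in let-7Tg in naive cells. Lin28Tg libraries were the 3 highest and let-7Tg the 3 lowest (log2 difference 0.53 ± 0.10, adjusted p = 0.00390 for lin28Tg over WT, log2 difference 0.49 ± 0.11, adjusted p = 0.0416 without lin28Tg replicates 2 and 3). At 12 h it was at 3959.7, 3413 and 4391 FPKM in WT, 5129, 5139 and 5045 FPKM in lin28Tg and 3533, 3158 and 4212 FPKM in let-7Tg, and lin28Tg exceeded let-7Tg (log2 difference 0.51 ± 0.15, adjusted p = 0.0309). In CTLs lin28Tg and WT overlapped at 4706 to 4994 and 4391 to 5690.2 FPKM, above the 3749 to 4330.5 of let-7Tg (log2 difference 0.38 ± 0.10, adjusted p = 0.0233 for lin28Tg over let-7Tg). Gapdh, often used as a reference gene, was thus called between lin28Tg and let-7Tg at all 3 stages. Phosphoglycerate kinase, Pgk1, makes the first ATP of the pathway. In naive cells it was at 95.5, 87.7 and 83.6 FPKM in WT, 121, 137 and 128 FPKM in lin28Tg and 90.4, 88.1 and 82.3 FPKM in let-7Tg. Levels of Pgk1 at 12 h were 501, 399 and 522 FPKM in WT, 480.1, 553 and 529 FPKM in lin28Tg and 425, 326 and 395 FPKM in let-7Tg. On day 5 it was at 1279, 1168 and 1053 FPKM in WT, 1233, 1166 and 1147 FPKM in lin28Tg and 1012, 832 and 774 FPKM in let-7Tg. Lin28Tg was above let-7Tg in every library at each stage (log2 difference 0.58 ± 0.07, adjusted p = 3.11e-04 in naive cells, and log2 difference 0.46 ± 0.14, adjusted p = 0.0356 at 12 h, and log2 difference 0.54 ± 0.10, adjusted p = 0.00581 on day 5). Pgk1 lies on the X chromosome. Between the naive libraries with Xist RNA alone lin28Tg exceeded WT by 0.55 ± 0.08 log2 units (adjusted p = 0.00304), and at 12 h the call against let-7Tg was lost without lin28Tg replicate 3, the library with Xist RNA (log2 difference 0.46, adjusted p = 0.0816). Against WT, let-7Tg CTLs gave a log2 difference of -0.47 ± 0.10 (adjusted p = 0.0738), or a log2 difference of -0.47 ± 0.07 (adjusted p = 0.0202) with the replicate block.

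Enolase came next. Eno1, the ubiquitous isozyme, was at 974, 681 and 1004 FPKM in WT, 1048, 1199 and 1129.6 FPKM in lin28Tg and 799, 699 and 839 FPKM in let-7Tg at 12 h. On day 5 it was at 4120.0, 3539.6 and 3367 FPKM in WT, 3830.2, 4105 and 3997 FPKM in lin28Tg and 2897, 2642 and 2842 FPKM in let-7Tg. Lin28Tg libraries were the highest 3 at 12 h, let-7Tg libraries the lowest 3 on day 5, and lin28Tg exceeded let-7Tg (log2 difference 0.54 ± 0.16, adjusted p = 0.0295 at 12 h, and log2 difference 0.60 ± 0.09, adjusted p = 0.00182 on day 5). In naive cells Eno1 ranged over 577 to 724 FPKM and the same difference was 0.16 ± 0.08 log2 units (adjusted p = 0.142). With the replicate block let-7Tg CTLs were below WT CTLs in Eno1 (log2 difference -0.44 ± 0.09, adjusted p = 0.0430). Eno3, known as the muscle isozyme, was at 47.4, 40.8 and 35.4 FPKM in WT, 60.2, 80.2 and 60.1 FPKM in lin28Tg and 41.3, 38.5 and 42.6 FPKM in let-7Tg in naive cells. Lin28Tg was higher there (log2 difference 0.66 ± 0.13, adjusted p = 0.00523 against WT). On day 5 Eno3 was at 34.9, 33.4 and 45.0 FPKM in WT, 20.9, 19.0 and 32.4 FPKM in lin28Tg and 36.2, 45.6 and 57.6 FPKM in let-7Tg, and lin28Tg was now lowest. The difference from let-7Tg was -0.86 ± 0.24 log2 units (adjusted p = 0.0311), and that from WT a log2 difference of -0.62 ± 0.24 (adjusted p = 0.189), or a log2 difference of -0.62 ± 0.10 (adjusted p = 0.0100) with the replicate block.

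Triose phosphate isomerase, Tpi1, was at 76.0, 73.8 and 69.3 FPKM in WT, 105, 152 and 125 FPKM in lin28Tg and 70.2, 69.4 and 50.0 FPKM in let-7Tg in naive cells. Each lin28Tg library was above each other library (log2 difference 0.75 ± 0.15, adjusted p = 0.00590 against WT, and log2 difference 0.52 ± 0.18, adjusted p = 0.128 with replicate 1 as the lone lin28Tg library). Tpi1 was at 341 to 565 FPKM at 12 h and on day 5 at 1096 to 1538 FPKM, without a call between genotypes in the fits of all 3. The 12 h fit of WT and let-7Tg alone with the replicate block called it lower in let-7Tg (log2 difference -0.36 ± 0.08, adjusted p = 0.0313). Pyruvate kinase, Pkm, was at 239, 243 and 249 FPKM in WT, 287, 333 and 294 FPKM in lin28Tg and 234, 228 and 233 FPKM in let-7Tg in naive cells. Stimulated for 12 h, cells held Pkm at 965, 858 and 989.6 FPKM in WT, 992, 1048 and 1039.9 FPKM in lin28Tg and 849, 837 and 839 FPKM in let-7Tg. Lin28Tg was above let-7Tg in every library at both stages (log2 difference 0.41 ± 0.07, adjusted p = 0.00149 and log2 difference 0.29 ± 0.08, adjusted p = 0.0234), but on day 5 lin28Tg at 1034 to 1106 and let-7Tg at 962 to 1230.0 FPKM overlapped (log2 difference 0.06 ± 0.12, adjusted p = 0.776). Gene-level values do not separate the M1 and M2 splice forms of Pkm. Aldolase A, Aldoa, was at 2087, 1922 and 1341 FPKM in WT, 2019, 2044 and 1985 FPKM in lin28Tg and 1471, 1366 and 1060.3 FPKM in let-7Tg on day 5, higher in lin28Tg than in let-7Tg (log2 difference 0.74 ± 0.16, adjusted p = 0.0107), with no call before. Aldoc, the isozyme known from brain, was at 0.859 to 2.01 FPKM in naive cells and 0.0535 to 0.330 at 12 h, and then at 159, 112 and 81.4 FPKM in WT, 113, 56.1 and 67.9 FPKM in lin28Tg and 120.4, 87.8 and 63.5 FPKM in let-7Tg on day 5. Lin28Tg replicates 2 and 3 were below every WT library, and the difference from WT was -0.54 ± 0.31 log2 units (adjusted p = 0.395), or a log2 difference of -0.54 ± 0.13 (adjusted p = 0.0350) with the replicate block. Copies without introns of Gapdh, Pgam1, Eno1, Ldha and other members are known in the mouse genome, and how reads that map to several places were treated is not given in the sources used here, so absolute levels of these genes are uncertain.

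Lactate dehydrogenase is a tetramer of A and B subunits, the A form favouring lactate and the B form pyruvate, and the genes of both subunits are members. Ldha, for which 1 promoter window is printed above, was at 517, 559 and 544 FPKM in WT, 713, 736 and 667 FPKM in lin28Tg and 520.3, 575 and 553 FPKM in let-7Tg in naive cells. The 3 lin28Tg libraries were the highest (log2 difference 0.36 ± 0.08, adjusted p = 0.00834 against WT). At 12 h it was at 1482 to 2014 FPKM with the genotypes overlapping. In CTLs Ldha was at 2876, 2641 and 2768 FPKM in WT, 2998, 2966 and 3197 FPKM in lin28Tg and 2243, 2077 and 2327 FPKM in let-7Tg. Lin28Tg was highest and let-7Tg lowest with no overlap, lin28Tg exceeding let-7Tg (log2 difference 0.56 ± 0.08, adjusted p = 0.00142) and let-7Tg differing from WT (log2 difference -0.37 ± 0.08, adjusted p = 0.0669), or a log2 difference of -0.37 ± 0.07 (adjusted p = 0.0320) with the replicate block.

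Ldhb (chr6:142490249-142507957) was lowest in lin28Tg and highest in let-7Tg at 12 h and on day 5, and lower in lin28Tg than in let-7Tg at every stage. In naive cells it was at 6.13, 12.9 and 11.8 FPKM in WT, 5.09, 7.08 and 5.63 FPKM in lin28Tg and 10.5, 11.3 and 12.5 FPKM in let-7Tg. WT replicate 1 lay among the lin28Tg values, and lin28Tg was lower than WT (log2 difference -0.72 ± 0.24, adjusted p = 0.0481) and than let-7Tg (log2 difference -0.88 ± 0.24, adjusted p = 0.0163). With lin28Tg replicate 1 alone neither passed, the difference from WT being -0.88 ± 0.35 log2 units (adjusted p = 0.172) and that from let-7Tg -1.04 ± 0.35 log2 units (adjusted p = 0.0749). At 12 h Ldhb was at 11.7, 10.5 and 8.84 FPKM in WT, 4.40, 4.78 and 2.76 FPKM in lin28Tg and 15.1, 12.1 and 16.9 FPKM in let-7Tg. The 3 genotypes did not overlap, and lin28Tg was below WT (log2 difference -1.31 ± 0.21, adjusted p = 0.00510) and below let-7Tg (log2 difference -1.78 ± 0.21, adjusted p = 3.47e-04), a fitted 3.43-fold difference. On day 5 it was at 6.22, 5.24 and 4.16 FPKM in WT, 2.51, 3.29 and 2.37 FPKM in lin28Tg and 13.1, 15.2 and 10.2 FPKM in let-7Tg. Again there was no overlap, let-7Tg lay above WT (log2 difference 1.18 ± 0.19, adjusted p = 0.0371) and lin28Tg below let-7Tg (log2 difference -1.96 ± 0.19, adjusted p = 3.47e-04). Lin28Tg against WT gave a log2 difference of -0.78 ± 0.19 (adjusted p = 0.0565), and a log2 difference of -0.78 ± 0.13 (adjusted p = 0.0114) with the replicate block. Ldhb was 0.150% to 0.216% of the summed FPKM of Ldha and Ldhb in WT CTLs, 0.0740% to 0.111% in lin28Tg and 0.436% to 0.725% in let-7Tg. By FPKM Ldha was by far the more abundant transcript in all genotypes.

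**Figure D4:**
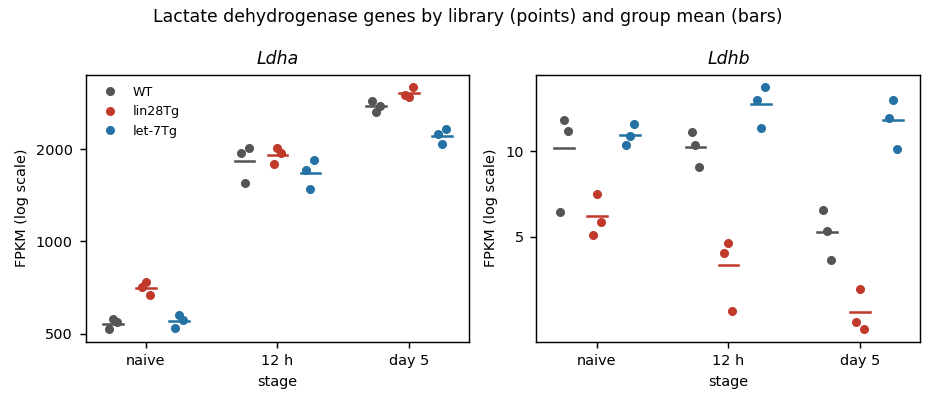
FPKM of Ldha and Ldhb on a log scale in each library (points) with the group mean (bars), by stage and genotype. In day 5 CTLs Ldha is highest in lin28Tg and lowest in let-7Tg, and Ldhb has the opposite order, from 2.37 FPKM in a lin28Tg library to 15.2 in a let-7Tg library.

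Monocarboxylate transporters carry lactate out of the cell. Slc16a3 codes for the form that exports lactate in glycolytic tissue. In naive cells it was at 3.28, 3.53 and 3.11 FPKM in WT, 5.51, 9.73 and 6.78 FPKM in lin28Tg and 2.63, 2.62 and 2.10 FPKM in let-7Tg. No genotype overlapped another, and lin28Tg was above WT (log2 difference 0.98 ± 0.19, adjusted p = 0.00456), or a log2 difference of 0.66 ± 0.19 (adjusted p = 0.0735) without replicates 2 and 3. Slc16a3 at 12 h was at 8.07, 6.75 and 9.12 FPKM in WT, 10.6, 11.7 and 9.13 FPKM in lin28Tg and 3.63, 5.13 and 3.85 FPKM in let-7Tg. All let-7Tg libraries were below all others (log2 difference -0.87 ± 0.15, adjusted p = 0.0260 against WT) and with lin28Tg above let-7Tg (log2 difference 1.23 ± 0.15, adjusted p = 4.80e-04). By day 5 it had reached 244, 156 and 135 FPKM in WT, 193, 197 and 199 FPKM in lin28Tg and 165, 117 and 104 FPKM in let-7Tg. WT overlapped with both transgenic genotypes, which differed (log2 difference 0.73 ± 0.22, adjusted p = 0.0417). Slc16a1, the widespread form, was at 11.6, 10.9 and 9.79 FPKM in WT, 13.6, 11.7 and 13.4 FPKM in lin28Tg and 9.27, 8.62 and 9.06 FPKM in let-7Tg in naive cells. Lin28Tg was higher than let-7Tg without overlap (log2 difference 0.52 ± 0.09, adjusted p = 0.00205). Later it was at 35.2 to 46.8 FPKM at 12 h and on day 5 at 23.1 to 54.1 FPKM. The day 5 difference was 0.57 ± 0.33 log2 units (adjusted p = 0.249), and a log2 difference of 0.57 ± 0.14 (adjusted p = 0.0144) with the replicate block, and replicate 3 was the highest library of each genotype.

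Pyruvate enters mitochondria through the Mpc1 and Mpc2 carrier, and Pdk kinases shut pyruvate dehydrogenase behind it. Pdk1 (chr2:71873224-71903858) was at 89.9, 87.7 and 97.0 FPKM in WT, 55.1, 45.1 and 49.6 FPKM in lin28Tg and 128, 104 and 133 FPKM in let-7Tg in naive cells. It ran from lin28Tg through WT to let-7Tg without overlap, opposite to Hk2. Lin28Tg was lower than WT by a fitted 1.86-fold (log2 difference -0.90 ± 0.10, adjusted p = 3.27e-04), still so without replicates 2 and 3 (log2 difference -0.72 ± 0.13, adjusted p = 0.0220), and lower than let-7Tg (log2 difference -1.25 ± 0.10, adjusted p = 3.48e-05). At 12 h Pdk1 was at 30.2, 24.9 and 32.1 FPKM in WT, 22.4, 23.5 and 19.3 FPKM in lin28Tg and 32.9, 32.1 and 27.97 FPKM in let-7Tg. Lin28Tg libraries remained the lowest 3, with a log2 difference of -0.50 ± 0.12 (adjusted p = 0.0106) against let-7Tg and a log2 difference of -0.43 ± 0.12 (adjusted p = 0.0512) against WT. By day 5 it had returned to 113, 127 and 122 FPKM in WT, 119, 70.6 and 80.4 FPKM in lin28Tg and 117, 99.9 and 99.8 FPKM in let-7Tg, and lin28Tg minus let-7Tg was -0.17 ± 0.16 log2 units (adjusted p = 0.496). Pdk3 was at 19.1, 21.5 and 19.9 FPKM in WT, 26.2, 25.6 and 26.5 FPKM in lin28Tg and 22.4, 21.3 and 21.5 FPKM in let-7Tg in naive cells. Lin28Tg was slightly higher than WT (log2 difference 0.34 ± 0.07, adjusted p = 0.00470). Pdk3 too is X-linked, and the naive libraries with Xist RNA alone gave a log2 difference of 0.30 ± 0.08 (adjusted p = 0.0236). Later levels were 39.7 to 49.6 and 48.3 to 54.5 FPKM with no call. Mpc1 and, at 14.6 to 23.7 FPKM over all libraries, Mpc2 were the flattest members, and neither was called between genotypes at any stage.

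Hypoxia genes closed the list. Hif1a codes for the oxygen-regulated subunit of hypoxia-inducible factor, whose activity is set mainly by protein decay. Its RNA was at 30.3 to 35.0 FPKM in naive cells and 78.0 to 113 at 12 h, with the genotypes overlapping. On day 5 it was at 144, 189 and 211 FPKM in WT, 184, 164 and 136 FPKM in lin28Tg and 263, 287 and 213 FPKM in let-7Tg. The let-7Tg libraries were the highest 3, and lin28Tg was lower (log2 difference -0.57 ± 0.17, adjusted p = 0.0420). Bnip3, a known target of hypoxia-inducible factor, was at 4.14, 2.66 and 3.83 FPKM in WT, 4.46, 9.66 and 5.98 FPKM in lin28Tg and 5.46, 4.55 and 6.51 FPKM in let-7Tg in naive cells, higher in lin28Tg than in WT (log2 difference 0.76 ± 0.26, adjusted p = 0.0462), and with replicate 1 alone not called (log2 difference 0.32 ± 0.26, adjusted p = 0.496). After 12 h Bnip3 was at 6.40, 4.81 and 8.68 FPKM in WT, 2.20, 2.87 and 1.62 FPKM in lin28Tg and 7.01, 5.19 and 6.29 FPKM in let-7Tg. The lin28Tg libraries were now below all others (log2 difference -1.39 ± 0.24, adjusted p = 0.00773 against WT, and log2 difference -1.30 ± 0.24, adjusted p = 0.00371 against let-7Tg). By day 5 the levels were 268, 259.9 and 209.9 FPKM in WT, 309.8, 306 and 279.8 FPKM in lin28Tg and 211, 162 and 128 FPKM in let-7Tg. The order had turned, all lin28Tg libraries now being above all others, while WT and let-7Tg overlapped. Lin28Tg exceeded let-7Tg (log2 difference 0.96 ± 0.16, adjusted p = 0.00345), and let-7Tg against WT gave a log2 difference of -0.62 ± 0.16 (adjusted p = 0.117), or a log2 difference of -0.62 ± 0.11 (adjusted p = 0.0257) with the replicate block. Egln3 was at 2.53, 3.49 and 3.77 FPKM in WT, 1.74, 2.61 and 3.61 FPKM in lin28Tg and 4.31, 4.36 and 4.09 FPKM in let-7Tg in naive cells, lower in lin28Tg than in let-7Tg (log2 difference -0.62 ± 0.21, adjusted p = 0.0404). In CTLs it was at 57.1, 38.0 and 39.6 FPKM in WT, 41.3, 28.8 and 27.2 FPKM in lin28Tg and 57.2, 41.6 and 29.8 FPKM in let-7Tg, and lin28Tg against WT gave a log2 difference of -0.42 ± 0.25 (adjusted p = 0.397), or a log2 difference of -0.42 ± 0.11 (adjusted p = 0.0402) with the replicate block.

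**Figure D5:**
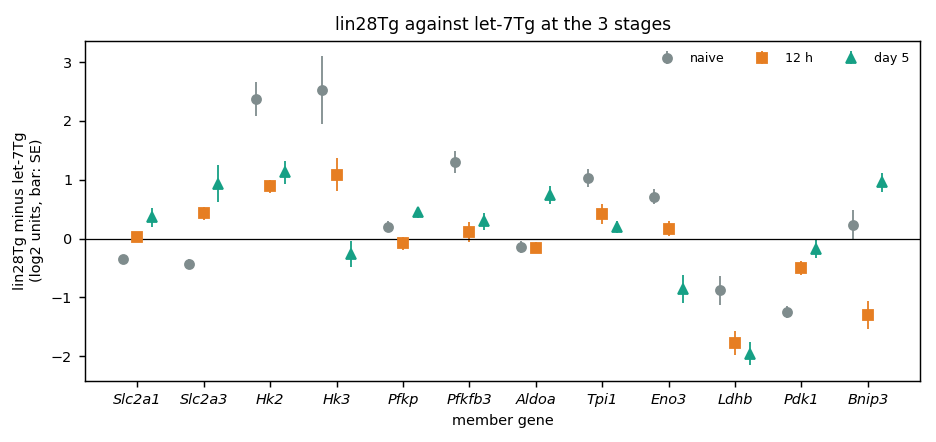
Fitted difference of lin28Tg minus let-7Tg (points, log2 units, with SE bars) in naive cells, at 12 h and on day 5, for the 12 members in which this difference itself differed between stages. Slc2a1, Slc2a3, Aldoa and Bnip3 lie highest on day 5, Hk2, Hk3, Pfkfb3, Tpi1 and Eno3 lie highest in naive cells, Ldhb falls further below 0, and Pdk1 rises towards 0.

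Whether the difference between lin28Tg and let-7Tg itself changed with stage was tested in a model of all 27 libraries. Shares of all genes are given for that model and not for its fit without naive lin28Tg replicates 2 and 3. Between naive cells and 12 h it changed in 4 members, where 13.6% of all genes did: Hk2 (log2 change -1.43 ± 0.32, adjusted p = 0.00428), Pfkfb3 (log2 change -1.19 ± 0.26, adjusted p = 0.00375), Bnip3 (log2 change -1.53 ± 0.34, adjusted p = 0.00457) and Pdk1 (log2 change 0.76 ± 0.20, adjusted p = 0.0125). Without naive lin28Tg replicates 2 and 3 none of the 4 passed. From 12 h to day 5 it changed in 4 members (20.2% of all genes). Bnip3 had the largest change (log2 change 2.25 ± 0.34, adjusted p = 5.17e-05), from lower to higher in lin28Tg. Aldoa (log2 change 0.87 ± 0.19, adjusted p = 0.00159) and Pfkp (log2 change 0.51 ± 0.15, adjusted p = 0.0147) moved up in lin28Tg relative to let-7Tg, and Eno3 moved down (log2 change -1.04 ± 0.27, adjusted p = 0.00799). From naive cells to day 5 it changed in 10 members (25.4% of all genes), upward in Slc2a1, Slc2a3, Aldoa and Pdk1 and downward in Hk2, Hk3, Pfkfb3, Tpi1, Eno3 and Ldhb, and in 5 members without the same naive libraries, with Slc2a3, Aldoa, Eno3 and Pdk1 still among them and Bnip3 added. Pgam1, Gapdh, Pgk1 and Slc16a3, called between lin28Tg and let-7Tg at each of the 3 stages, were called in none of these tests. The changes of their difference from naive to day 5 were -0.35 ± 0.21, -0.37 ± 0.18, -0.05 ± 0.17 and -0.66 ± 0.28 log2 units.

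Other genes of glucose metabolism, a list of 73 in 6 groups, were read beside the members, against the shares of all genes given above for each comparison. Between lin28Tg and let-7Tg, 16 were higher and 9 lower of 62 tested in naive cells, 14 and 3 of 61 at 12 h, and 14 and 7 of 60 on day 5. Against WT, lin28Tg had 14 higher and 6 lower in naive cells, 6 and 1 at 12 h and 4 and 2 on day 5, and let-7Tg had 0 and 1, 2 and 2, and 0 and 0. Without lin28Tg replicates 2 and 3 the naive counts were 11 and 5 against let-7Tg and 3 and 1 against WT. The naive differences of Pgd, Ero1l, Myc and Slc2a6 from let-7Tg named here passed in that fit as well (adjusted p = 0.0108, 0.00685, 0.00497 and 0.0210 in limma). The pentose phosphate pathway, which branches off glycolysis to make NADPH and ribose, had 5, 2 and 6 of 8 genes higher in lin28Tg than in let-7Tg at the 3 stages and 0, 1 and 0 lower, with 3 higher in the naive fit without lin28Tg replicates 2 and 3. Its dehydrogenase gene Pgd was higher at each stage (log2 difference 0.74 ± 0.09, adjusted p = 2.77e-04 in naive cells, log2 difference 0.53 ± 0.07, adjusted p = 9.82e-04 at 12 h and log2 difference 0.51 ± 0.11, adjusted p = 0.0101 on day 5). Among the hypoxia response genes, 5, 5 and 4 were higher and 4, 0 and 0 lower in lin28Tg than in let-7Tg, of 17 tested in naive cells, 17 at 12 h and 17 on day 5. The protein-folding oxidase gene Ero1l was higher at each stage (log2 difference 0.76 ± 0.09, adjusted p = 2.10e-04, log2 difference 0.92 ± 0.09, adjusted p = 1.56e-04 and log2 difference 1.77 ± 0.23, adjusted p = 0.00118).

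The regulator Myc, a transcription factor that drives glycolytic genes in activated T cells, was at 79.7, 77.3 and 82.7 FPKM in naive WT, 80.8, 88.7 and 72.3 in lin28Tg and 55.8, 49.4 and 56.0 in let-7Tg, and let-7Tg was lowest without overlap. At 12 h Myc stood at 647, 702 and 667, 708, 672 and 713 and 531, 424 and 489 FPKM in the same order. It was higher in lin28Tg than in let-7Tg (log2 difference 0.60 ± 0.09, adjusted p = 7.22e-04 in naive cells, and log2 difference 0.55 ± 0.10, adjusted p = 0.00363 at 12 h). On day 5 the difference was -0.41 ± 0.27 log2 units (adjusted p = 0.302). Txnip and Arrdc4 code for arrestin-like proteins that restrain glucose uptake. On day 5 Txnip was at 148, 127 and 97.0 FPKM in WT, 88.7, 45.6 and 56.1 in lin28Tg and 184, 148 and 90.5 in let-7Tg. It was lower in lin28Tg than in let-7Tg (log2 difference -1.05 ± 0.29, adjusted p = 0.0305), and Arrdc4 was lower (log2 difference -1.55 ± 0.21, adjusted p = 0.00127). In naive cells Arrdc4 went the other way. With lin28Tg replicate 1 as the lone naive lin28Tg library, its log2 difference from let-7Tg was 1.47, and that of Txnip -0.37. The transporter gene Slc2a6 was higher in lin28Tg than in let-7Tg in naive cells (log2 difference 2.10 ± 0.30, adjusted p = 6.78e-04) and at 12 h (log2 difference 3.00 ± 0.45, adjusted p = 0.00130) and lower on day 5 (log2 difference -1.63 ± 0.21, adjusted p = 0.00105), where it was at 0.340, 0.790 and 0.348 FPKM in lin28Tg and 2.37, 3.41 and 2.26 in let-7Tg.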

How the data were processed

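RNA of 27 libraries (3 genotypes at 3 stages, 3 libraries each) was sequenced. By the methods and the submitters' processing notes the authors aligned reads to GRCm38 (mm10) with TopHat2 2.0.9 and Bowtie2 2.0.6, counted genes with HTSeq 0.6.1, and deposited FPKM, scaled per library and not pooled. The annotation release and how reads with several matches were treated are not given in the sources used here. Fold changes and p-values of the authors' own comparisons also stand in the tables and were not used.

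Because FPKM is a multiple of the value of 1 read, whole reads could be recovered: all 462839 values above 0 came out whole within 0.02 reads, for 13862706 to 23591069 reads per library. Intervals of single values were not formed, since the spread between libraries was used. No replicates agreed within counting noise (lowest chi-square per degree of freedom between libraries of a group 4.40). Genes with at least 10 reads in 3 libraries and 15 in all were kept, FPKM was scaled between libraries by the TMM method (trims of 0.3 and 0.05), and limma 3.58.1 in R 4.3.3 was fitted with a mean-variance trend on log2(FPKM + 0.5). The 3 genotypes of a stage were fitted together, and stages and their interactions with genotype in a model of all 27 libraries. The p-values were adjusted by the Benjamini-Hochberg method over all genes tested, with a threshold of 0.05. Scripts were tested on simulated data first. As an alternative, limma voom was run on the recovered reads.

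The numbers of day 5 libraries were taken as pairs, which the labels do not state. All 9 correlations of same-numbered libraries' deviations from their group means were over 0.1 (0.25 to 0.71). Those of differently numbered libraries were -0.53 to 0.14, with WT replicate 1 and let-7Tg replicate 2 (0.14) over 0.1 too. Replicate 1 of each genotype was the one with Xist RNA (383 to 476 FPKM), which does not tell replicates 2 and 3 apart. At 12 h the 3 same-numbered pairs of WT and let-7Tg were over 0.1 (0.24 to 0.55) and no same-numbered pair with lin28Tg was. A block over the WT and let-7Tg libraries was added there after seeing the data. WT replicate 1 with let-7Tg replicate 3 (0.14) and WT replicate 3 with let-7Tg replicate 1 (0.16) were over 0.1 too. Pairing by number is thus not shown at 12 h. In naive cells no 2 genotypes had all pairs over 0.1, and the block is given in the closing section alone. Alternatives were pseudocounts of 0.1 and 1, no filter, a filter of 1 FPKM, no scaling or median-of-ratios scaling, voom, the replicate block, fits of the 6 libraries compared, and leaving out each library. The naive fits without lin28Tg replicates 2 and 3 and of the libraries with Xist RNA alone were added after seeing the data. A further list of cell markers is not reported here. The members and lists were chosen with earlier results of these data known. Values per library are given for members called against WT at any stage or between lin28Tg and let-7Tg at 2 or more stages, and other members by their range. From the other lists, genes were named by the smallest adjusted p. Replicates are 3 per group, and p-values measure the spread between them.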

Additional observations from a re-analysis of the deposited data

Results flagged for a closer look

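In 18 cases the difference between lin28Tg and let-7Tg differed between stages, by the interaction test in the limma model of all 27 libraries. Between naive cells and 12 h the log2 difference changed by -1.43 in Hk2, -1.19 in Pfkfb3, 0.76 in Pdk1 and -1.53 in Bnip3. Between 12 h and day 5 it changed by 0.51 in Pfkp, 0.87 in Aldoa, -1.04 in Eno3 and 2.25 in Bnip3. Between naive cells and day 5 it changed by 0.71 in Slc2a1, 1.36 in Slc2a3, 0.87 in Aldoa and 1.07 in Pdk1, and by -1.21 in Hk2, -2.78 in Hk3, -1.02 in Pfkfb3, -0.83 in Tpi1, -1.58 in Eno3 and -1.09 in Ldhb. Myeloid markers were highest in naive lin28Tg replicates 2 and 3, without which none of the first 4 passed and 4 of the last 10 did (Slc2a3, Aldoa, Eno3 and Pdk1), and their part in these changes was not tested. Groups of 3 libraries are too small for a test of single outlying libraries, and none was run.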

How the results depend on the processing

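Of 256 called values, 193 passed in every alternative run and none changed sign. Counting each called value in each setting as a case, the others missed the threshold in 61 of 2160 cases of other settings. In fits without a single library, or without naive lin28Tg replicates 2 and 3, they missed it in 157 of 5715 cases. Counts of members called were within 1.5 times the reported one in 483 of 522 cases. The shares of all genes called are not given for fits without a single library. Nor are they given for tests of stages without naive lin28Tg replicates 2 and 3. Whether a changed count in such fits is particular to the members is thus not shown. Without naive lin28Tg replicates 2 and 3 the count fell from 18 to 4 for naive lin28Tg against WT, from 4 to 0 for the change between naive cells and 12 h, and from 10 to 5 for that between naive cells and day 5. Between let-7Tg and WT the counts were small, and in naive cells the 1 call became 0 with no filter, 0 in the libraries with Xist RNA alone and 0 to 1 without single libraries. At 12 h these 2 calls became 0 with no filter and 0 with only the 6 libraries compared. They became 6 in the fit of these 6 with the replicate block, where pairing by number is not shown. Without single libraries they became 0 to 3 (0 without WT replicate 1, WT replicate 3 or let-7Tg replicate 3). On day 5 the 2 became 1 with a pseudocount of 0.1, 0 with no filter, 1 with at least 1 FPKM in 3 libraries, 1 with no scaling, 1 with voom, 0 with only the 6 libraries compared and 0 to 5 without single libraries. Between lin28Tg and WT the 2 calls at 12 h became 4 with only the 6 libraries compared, and the 0 on day 5 became 0 to 2 without single libraries. Between lin28Tg and let-7Tg at 12 h the 13 became 7 to 14 without single libraries, and the 4 changes between naive cells and 12 h became 4 to 8, 8 without naive lin28Tg replicate 1. With the replicate block, day 5 counts became 4 for lin28Tg against WT and 7 for let-7Tg against WT, and the changes between naive cells and 12 h became 8, where the naive numbers are not shown to pair the samples. No count in another comparison moved by over 1.5 times with the block. Voom called 5752 genes between lin28Tg and let-7Tg in naive cells, 3917 at 12 h and 2937 on day 5, against 5778, 3820 and 2838 by the reported fit. With no scaling the share of higher among all called genes moved from 33.1% to 51.0% for naive let-7Tg against WT, from 62.0% to 72.4% on day 5, and from 48.1% to 35.0% for lin28Tg against let-7Tg on day 5, where the members then split into 8 higher and 3 lower, and the median of all genes from naive to 12 h moved to -0.18 in WT and let-7Tg and -0.24 in lin28Tg. The causes were not tested. With 3 libraries per group, a difference that missed the threshold may still exist, and Aldoc and Hk3 rest on few reads before day 5.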
